A study of Rattus norvegicus with 8 samples.

Results

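The rows described here are those that the gene annotation of the rat Achilles tendon table labels as pseudogenes. They were chosen by their gene type alone, every row whose type contains the word pseudogene, and numbered 395 of the 15590 genes in the table. Of these, 217 carried the plain label pseudogene, 156 were processed pseudogenes, 16 were unprocessed and 6 were transcribed processed pseudogenes. A row was tested if 4 or more libraries reached an FPKM of 0.5, which held for 344 pseudogene rows among 13863 tested genes. FPKM is the number of fragments per kilobase of gene length, scaled to the depth of the library.

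The tendons came from the right legs of wild-type rats of the SD strain, all male and aged 8 to 10 weeks. The 4 libraries of the NC group were from naïve controls that stayed at rest, and the 4 libraries of the 0 h p.r. (post-run) group were from rats that ran on a treadmill for 1 h and were killed straight afterwards, urged by airflow and, off the belt, a mild electric stimulus. Polyadenylated RNA of the whole tissue was sequenced, so a change in the number of cells of a type and a change in RNA per cell cannot be told apart. In the paper's one-time running study, the controls were killed together with a later post-run group. Time of day may therefore differ between NC and 0 h p.r., and its part was not tested. The labels number the replicates without naming the animal, and p-values measure the spread between these libraries.

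A pseudogene is a gene copy that has lost the ability to make the original protein. Processed pseudogenes arose when an mRNA was copied back into DNA and inserted elsewhere without introns, so abundant housekeeping mRNAs have left many of them, while unprocessed pseudogenes are decayed duplicates of genes. Many are silent, some are transcribed, and because they resemble their parent gene, short reads cannot always be assigned to one or the other. How the counting treated reads that fit several places, and whether it used the strand, is not given in the sources used here, so the level of a row that has a close copy or an overlapping gene is uncertain.

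RefSeq does not regard every row so labelled as a pseudogene. Of the 344 tested rows, 296 had a clone name in the table, and 283 of these, such as AABR07067759.1, had no RefSeq name either. Only 49 could be matched to RefSeq of the newer rat assembly GRCr8, 13 by symbol, 21 by gene number and 15 by a synonym. Of the 49, RefSeq lists 23 as pseudogenes and 26 as protein-coding genes. Among the latter were 9 with an established gene symbol in the table itself: Ier2, a nuclear protein of the immediate early response, Ubb, which encodes a chain of ubiquitin units, Sephs2, an enzyme that makes selenophosphate, Itpripl2, Rtl8a, Pou3f1, a transcription factor, Ado, a thiol dioxygenase, Adam1a and Slc25a52. Under the filter lay 6 more, including Dio3, the deiodinase that inactivates thyroid hormone, Foxq1, a transcription factor, and Fzd10, a Wnt receptor. By these matches, values of these rows are values of genes that RefSeq regards as coding. Whether row and RefSeq gene are the same locus was not checked.

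Promoters are shown for the most abundant row, Ubb, and for the called row with a known function, Ier2, because these carried the highest level and a large change. Each is 300 bases from RefSeq GRCr8, from 250 bases before the start to 50 after it, 5′ to 3′ on the plus strand. Ubb lies at chr10:47746673-47746972 and Ier2 at chr19:40399123-40399422. Capitals mark the cyclic AMP response element TGACGTCA in Ier2 and its core TGACG in Ubb.
Ubb: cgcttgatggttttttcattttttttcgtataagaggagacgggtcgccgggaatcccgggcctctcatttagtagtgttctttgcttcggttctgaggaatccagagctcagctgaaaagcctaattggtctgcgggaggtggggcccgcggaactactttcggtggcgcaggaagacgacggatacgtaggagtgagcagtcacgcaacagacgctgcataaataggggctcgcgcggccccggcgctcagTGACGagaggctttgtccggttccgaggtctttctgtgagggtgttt
Ier2: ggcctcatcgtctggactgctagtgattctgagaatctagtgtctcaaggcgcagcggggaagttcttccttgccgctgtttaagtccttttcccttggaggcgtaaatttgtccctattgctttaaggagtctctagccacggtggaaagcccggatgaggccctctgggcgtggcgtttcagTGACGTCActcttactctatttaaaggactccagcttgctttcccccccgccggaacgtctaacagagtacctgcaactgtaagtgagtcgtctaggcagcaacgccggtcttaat
The full element began 66 bases before the start of Ier2, while the core began at base 4 of the Ubb transcript, counted from 1. Searched on both strands, the full element was found in 1.83% of 33469 rat promoters of this length and the core, which every full element contains, in 21.2%. The heat shock element core TTCNNGAA (8.77% of promoters), the TATA box TATAAA (14.2%), the GC box GGGCGG (33.1%) and the CArG box (1.64%) had no match in either window. A match is a description of these letters only.

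Few pseudogene rows differed between the groups. With limma on log2(FPKM + 0.5), a row was called if its adjusted p was under 0.05 and its fold reached 2. This was met by 5 of 344 rows (1.45%), against 2.7% of all tested genes. All 5 were higher after the run (1.45%, against 1.8% of all tested genes). None was called lower (against 0.894%). An unadjusted limma p under 0.05 was met by 49 rows (14.2%, against 22.6%), 30 of them higher (8.72%, against 11.4%) and 19 lower (5.52%, against 11.2%). Dropping the fold threshold gave 9 rows (2.62%, against 5.72%). The groups did not overlap in 31 rows (9.01%, against 15.6%), 18 of them higher (5.23%, against 8.15%) and 13 lower (3.78%, against 7.47%). Among the 31, AABR07052611.2, AABR07048421.1, RGD1560523, AABR07021734.1 and AC128859.4 met the filter through 1 group only. Their separation is no support for a difference. Each of the shares given so far lay below that of all tested genes, and the difference in share was not tested. On whole reads recovered from the FPKM steps, limma's voom called 7 rows (2.03%, against 3.01%), 7 higher (2.03%, against 1.92%) and 0 lower (against 1.09%). Without 0 h p.r. 4 limma called 9 rows (2.62%, against 3.72%), 6 of them higher (against 2.21%) and 3 lower (against 1.51%). With library weights it called 10 rows (2.91%, against 3.64%), 6 higher (against 2.08%) and 4 lower (against 1.57%). The median log2 fold change of the 344 rows was 0.03, and 182 lay above and 162 below 0.

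**Figure D1:**
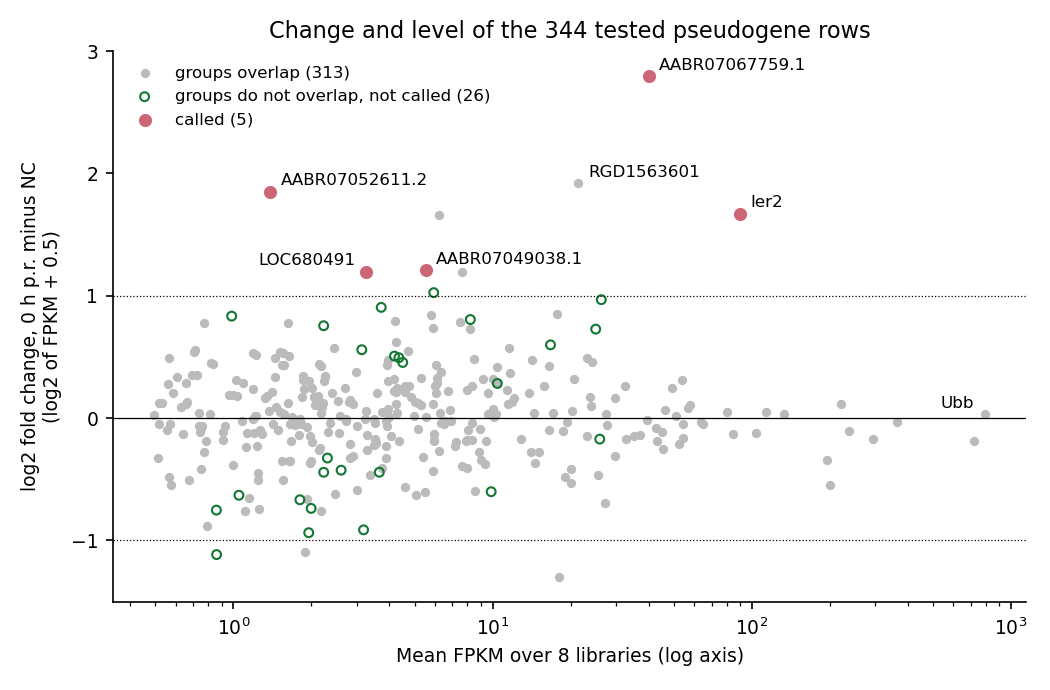
Each point is 1 of the 344 tested pseudogene rows, with its mean FPKM over the 8 libraries (log axis) and its log2 fold change, 0 h p.r. minus NC. Filled red points are the 5 called rows, open green circles the 26 others whose groups did not overlap, and dotted lines a fold of 2. The called rows lie above the upper line, while Ubb, the most abundant row, lies near 0.

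In the main fit, the largest change was in AABR07067759.1 (ENSRNOG00000057866), a row of 207 bases with no other name. It measured 8.42, 8.78, 13.2 and 8.44 FPKM in the 4 NC libraries, and 62.1, 65.5, 93.5 and 60.4 FPKM after the run. Every post-run library was above every control. The means were 9.70 ± 2.31 and 70.4 ± 15.5 FPKM (SD, n = 4 each), a log2 fold change of 2.80 ± 0.19 (SE, limma adjusted p = 0.000299). The row rested on 18 to 40 reads per control library and 171 to 248 reads per post-run library. Its rank held in the main fit but not in every setting. With a pseudocount of 0.1, AABR07052611.2 had a log2 fold change of 2.86, against 2.85 for AABR07067759.1. Without 0 h p.r. 4, RGD1563601 had 3.04, against 2.86 for AABR07067759.1.

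Ier2 (ENSRNOG00000054344) was the called row with the most reads, 610 to 1017 per control library and 2052 to 4124 after the run. Its levels were 38.9, 41.9, 42.9 and 45.7 FPKM in the controls and 150, 155, 109 and 135 FPKM after the run. The controls lay within a narrow range and the post-run libraries all lay above it. The means were 42.4 ± 2.81 and 137 ± 20.6 FPKM (SD, n = 4 each), a log2 fold change of 1.67 ± 0.13 (SE, limma adjusted p = 0.000532). The table labels this row a pseudogene, and RefSeq lists it as protein-coding. By that match it is the only called row with an established product.

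AABR07049038.1 (ENSRNOG00000060051, 351 bases) measured 4.33, 2.59, 3.11 and 2.68 FPKM in the controls and 7.50, 8.17, 8.0 and 7.73 FPKM after the run. The post-run values were closer together than the controls, with an SD of 0.295 against 0.80 FPKM. The log2 fold change was 1.21 ± 0.16 (SE, limma adjusted p = 0.00518). AABR07052611.2 (ENSRNOG00000055689, 210 bases) was barely detected at rest, with 0.268, 0.00, 0.649 and 0.32 FPKM, which were 0 to 2 reads per library. After the run it measured 4.3, 1.57, 1.86 and 2.11 FPKM, from 5 to 12 reads. All controls lay under a floor of 3 reads per library. The post-run mean was 2.35 times the level of that floor, a value that leaves out the error of the 5 to 12 post-run reads. The filter asked for 0.5 FPKM in 4 libraries, and this row met it only through the post-run group, where it is high, so its call among the 5 is no support for a difference. Of the 344 tested rows, 43 were let in by 1 group only, 22 by the controls and 21 by the runners. Among the other 301 rows 4 were called (1.33%), against 2.42% of all genes that did not rest on 1 group.

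LOC680491 (ENSRNOG00000062084) is Hsp90aa1-ps16 in RefSeq, a transcribed copy of Hsp90aa1, which encodes an inducible form of the chaperone Hsp90. It measured 2.17, 1.15, 1.24 and 2.63 FPKM at rest and 5.64, 5.11, 4.93 and 3.04 FPKM after the run. The groups did not overlap, but NC 4 and 0 h p.r. 4 were close. The means were 1.80 ± 0.722 and 4.68 ± 1.13 FPKM (SD, n = 4 each), a log2 fold change of 1.20 ± 0.26 (SE, limma adjusted p = 0.0338). The call was lost when any one of NC 1, NC 2, NC 3, 0 h p.r. 1, 0 h p.r. 2 or 0 h p.r. 3 was left out (limma adjusted p = 0.064 to 0.106). The other 3 called rows, AABR07052611.2 set aside, passed whichever of the 8 libraries was left out.

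**Figure D2:**
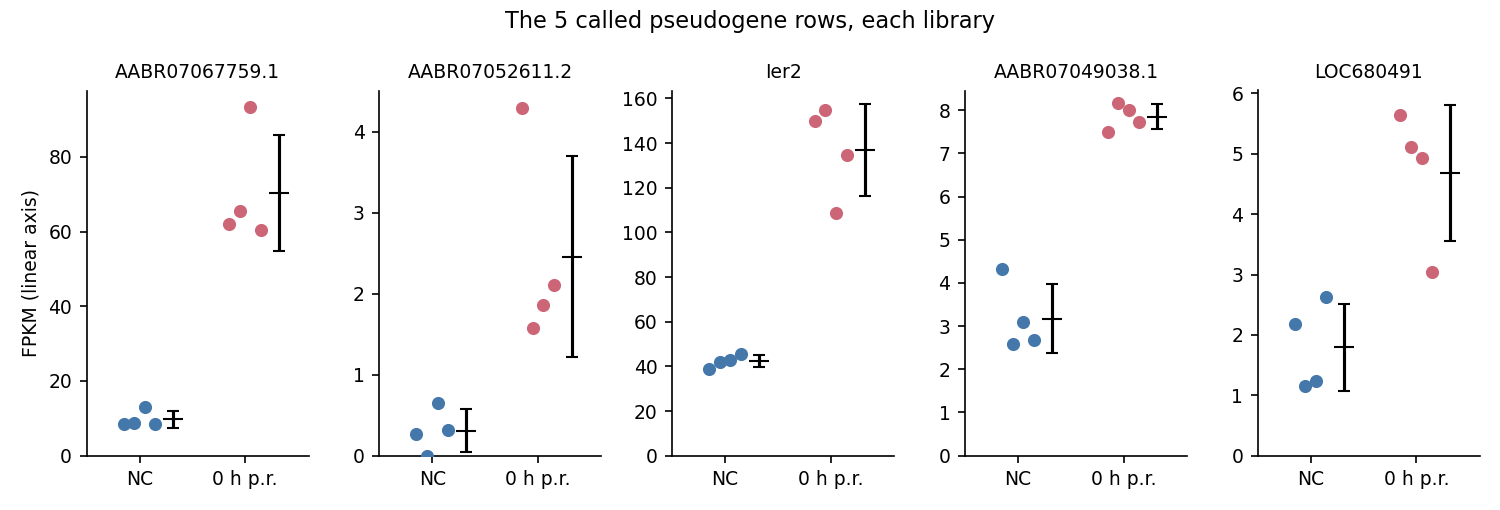
FPKM (linear axes from 0) of the 5 called pseudogene rows, 1 point per library, with the mean and SD of the 4 libraries of a group beside the points. In each row the post-run libraries lie above all controls, and LOC680491 has the smallest gap, 2.63 to 3.04 FPKM.

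Short of the fold threshold, 4 further rows had an adjusted limma p under 0.05. They are named here because of that p, after their values were seen. AABR07028979.1, a transcribed processed pseudogene, had a log2 fold change of 0.91 (limma adjusted p = 0.0121), from 2.17 to 2.92 FPKM at rest to 4.3 to 5.93 after the run, and its adjusted p was under 0.05 in each of the 8 fits that left out 1 library. It reached the fold threshold with voom (1.06, limma, adjusted p = 0.0191) and with a pseudocount of 0.1 (1.01, limma, adjusted p = 0.0122). AABR07063829.2 had 0.73 (limma adjusted p = 0.0232), from 16.5 to 21.9 FPKM at rest to 25.9 to 36.7 FPKM after the run, and its adjusted p was over 0.05 in 5 of these 8 fits, reaching 0.0809. RGD1562690 had 0.97 (limma adjusted p = 0.0495). Its adjusted p lay between 0.0554 and 0.134 in 7 of the 8 fits. It passed both thresholds without 0 h p.r. 4 (1.13, limma, adjusted p = 0.0221), with library weights (1.03, limma, adjusted p = 0.00952) and with voom (1.01, limma, adjusted p = 0.0483). AABR07021734.1 was the row that was lower, with 1.07, 1.20, 1.298 and 1.23 FPKM at rest and 0.716, 0.437, 0.310 and 0.615 FPKM after the run (-0.75, limma, adjusted p = 0.042). Its adjusted p was over 0.05 in 7 of the 8 fits, reaching 0.125, and the row met the filter only through the controls, where it is high.

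Next to the called rows in the higher direction stood AABR07008016.1, with 1.77 to 6.29 FPKM at rest and 6.47 to 10.3 FPKM after the run. Its log2 fold change was 1.03 (limma adjusted p = 0.0856), and leaving out NC 4 brought it past both thresholds at 1.27 (limma adjusted p = 0.0456). In the lower direction, the 6 rows with the largest differences and separate groups were AC128859.4 (-1.12), AABR07017999.1 (-0.94), AABR07068587.1 (-0.91), AABR07021734.1 (-0.75), AC134009.1 (-0.74) and AABR07026002.1 (-0.67). These values are log2 fold changes, and all 6 rows had means under 5 FPKM in both groups. AC128859.4 measured 2.41, 0.838, 1.41 and 0.836 FPKM at rest and 0.208, 0.381, 0.108 and 0.689 FPKM after the run (limma adjusted p = 0.0678). It passed both thresholds without 0 h p.r. 4 (-1.3, limma, adjusted p = 0.0412) and with library weights (-1.29, limma, adjusted p = 0.0222), but met the filter only through the controls, where it is high, so these calls are no support for a difference. AABR07017999.1 passed with library weights (-1.02, limma, adjusted p = 0.0442). AABR07068587.1 passed both thresholds without NC 2 (-1.08, limma, adjusted p = 0.0328), without 0 h p.r. 4 (-1.02, limma, adjusted p = 0.0411) and with library weights (-1.15, limma, adjusted p = 0.00656).

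Pseudogene rows were low, and a few stood far above the rest. Their median level was 3.81 FPKM, against 8.73 FPKM for tested protein-coding genes, and 83 of 344 (24.1%) reached 10 FPKM, against 46.1%. The rows were short, with a median length of 618.5 bases against 2319. They rested on a median of 34 reads per library, against 279 over all tested genes. The pseudogene share of all FPKM was 1.03, 0.931, 1.04 and 1.00% in the NC libraries and 0.899, 1.07, 0.983 and 1.02% in the 0 h p.r. libraries. The groups overlapped in this share. The 10 most abundant rows held 48.9 to 55.7% of it, and 11 rows had a mean of at least 100 FPKM. Of the recovered reads, pseudogene rows held a smaller share, from 0.383% in 0 h p.r. 4 to 0.445% in NC 2.

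Ubb stood first, with 803, 965, 709 and 674 FPKM at rest and 779, 745, 800 and 871 FPKM after the run. The groups overlapped, with a log2 fold change of 0.03 ± 0.18 (SE, limma adjusted p = 0.946). AC128792.2, a row of 165 bases, followed with 629 to 1144 FPKM at rest and 625 to 690 FPKM after the run. AC095947.3, of 75 bases, had 271 to 610 and 313 to 419 FPKM, from 298 to 466 reads per library. On a per length scale such short rows reach a high level with few reads. LOC100361933, which RefSeq lists as Rps12l8, a relative of the ribosomal protein gene Rps12, had 211 to 404 FPKM at rest and 217 to 299.99 FPKM after the run. LOC108350502 (Rps2-ps43), a copy of the ribosomal protein gene Rps2, had 106 to 294 and 102 to 233 FPKM. LOC100360791 (Tpt1l3), named for the translationally controlled tumour protein, had 145 to 417 and 126 to 184 FPKM. AABR07073038.1 was the steadiest of the 10, at 199.95 to 224 FPKM at rest and 202 to 247 FPKM after the run. The other 3 were AABR07045322.1, AC098750.3 and AABR07039448.1, with means of 238, 134 and 113 FPKM. None of the 10 was called by limma, their log2 fold changes lay between -0.55 and 0.12, and voom called none of them.

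Libraries differed in a way that touched these rows. NC 2 held the highest value of 30.2% of the 344 rows, against 24.5% of all tested genes, and of 82 of the 100 genes of cytosolic ribosomal proteins. Mitochondrial genes took 36.2% of its FPKM and 19.0 to 25.6% in the other libraries. Depth, as reads recovered over the listed genes, ran from 10663512 in NC 2 to 17470961 in 0 h p.r. 4. All 8 tendon markers had a row above 0, with a summed level of 3777 to 7451 FPKM at rest and 4154 to 7450 FPKM after the run. For skeletal muscle, 8 of 10 markers had a row, and their sum was 4728 to 7672 FPKM at rest and 1059 to 34999 FPKM after the run, highest in 0 h p.r. 1 and next in 0 h p.r. 3. The 8 adipocyte markers summed to 2608 to 4895 FPKM at rest and 888 to 1887 FPKM after the run. Of these 8, 6 were called, against 2.7% of all tested genes. Bone markers (5 of 5 with a row) summed to 10.45 to 48.6 FPKM at rest and 48.3 to 163 FPKM after the run. Cartilage markers (4 of 4) summed to 4.89 to 81.7 FPKM at rest and 81.7 to 341 FPKM after the run, so that both lists met at their edges only, with none of their genes called. Macrophage markers (4 of 4) summed to 98.1 to 170.2 and 86.1 to 163 FPKM, and erythroid markers (2 of 3) to 157 to 599.9 and 135 to 501 FPKM, none called. The part of these cell types in the called rows was not tested. With both NC 2 and 0 h p.r. 1 left out, a check chosen after seeing the data, AABR07067759.1, Ier2 and AABR07049038.1 remained called and LOC680491 did not. AABR07052611.2 also passed, but its call is set aside as above.

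Families could be read from names for 15 rows in the lists and 30 more outside them, while 299 tested rows gave no family. Of the 6 rows related to cytosolic ribosomal proteins, 1 had a log2 fold change above 0, the median was -0.17, and none was called by limma or voom or had an unadjusted p under 0.05. None of the 100 coding genes of this list was called by limma, and their median was -0.01. The 5 rows in the ubiquitin and chaperone list all lay above 0 in the main fit, with a median of 0.57 against -0.00142 over all tested genes. Among them Ubb lay at 0.03, and at -0.029 with quantile scaling. Of these 5, 3 had an unadjusted p under 0.05 (against 22.6%) and 1 was called (against 2.7%). Among the 149 coding genes of that list 2 were called higher, 0 lower, and the median was 0.10. No difference between these lists and other genes was tested.

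The chaperone copies were 4 rows, Hsp90aa1-ps16 above and 3 copies of Hspa8, the constitutive Hsp70 chaperone. LOC688655 (Hspa8-ps22) measured 14.9, 12.4, 10.9 and 14.4 FPKM at rest and 21.8, 20.6, 23.4 and 15.4 FPKM after the run. Its groups did not overlap, and the log2 fold change of 0.60 missed the threshold (limma adjusted p = 0.0616). AABR07031521.1 (Hsc70-ps2) measured 10.9, 9.47, 6.78 and 9.65 FPKM at rest and 14.2, 13.5, 17.0 and 10.9 FPKM after the run, a log2 fold change of 0.57 (limma adjusted p = 0.0959). LOC688932 (Hspa8-ps23) was near the filter, at 0.417 to 0.659 and 0.514 to 0.825 FPKM. Hspa8 itself had 419 to 513 FPKM at rest and 508 to 892 FPKM after the run, a log2 fold change of 0.53 (limma adjusted p = 0.152). In the 2 more abundant copies and in the parent, 0 h p.r. 3 was the highest library and 0 h p.r. 4 the lowest of its group.

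For 22 rows a name ending in ps pointed to a parent gene in the same table, 19 genes in all. The pseudogene row was under its parent in 21 of 22 pairs and under 10% of it in 11, with a median of 9.04% of the parent's FPKM. The exception was LOC299312 (Gtpbp4-ps2), at 8.09 to 13.4 FPKM, or 148% of Gtpbp4, a GTPase of ribosome assembly. None of the 19 parents was called by limma, while 7 had an unadjusted p under 0.05 (against 22.6% of all tested genes) and 1 (against 5.72%), the translation initiation helicase gene Eif4a1, an adjusted p under 0.05 (log2 fold change 0.69, limma, adjusted p = 0.0368). Its copy LOC688672 (Eif4a1-ps8) had 0.44, at 1.10% of the parent's level.

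Whether a pseudogene moved apart from its parent was tested on the log2 difference between them in each library, by a two-sided exact permutation test over the 70 assignments of libraries to groups. One of the 22 pairs reached the smallest p this design allows, 0.0286, and after adjustment over the pairs the smallest p was 0.629. At that limit 13 pairs would have to reach it together for any to pass an adjusted p of 0.05, so a miss here says little about a single pair. That pair was AABR07054361.1 (Sms-ps2) and the spermine synthase gene Sms. Sms measured 5.77, 6.11, 5.98 and 4.52 FPKM at rest and 9.11, 6.64, 8.96 and 8.10 FPKM after the run, a log2 fold change of 0.51 (limma adjusted p = 0.0767), while its copy had -0.03. The difference of pseudogene minus parent was 0.54 lower after the run on the log2 scale, -0.48 ± 0.21 at rest and -1.02 ± 0.33 after the run (SD, n = 4 each). For Hsp90aa1-ps16 the parent measured 23.2, 15.7, 6.72 and 15.3 FPKM at rest and 16.2, 15.8, 77.4 and 22.4 FPKM after the run. The parent thus had 1 high library, 0 h p.r. 3, while the copy was highest in 0 h p.r. 1. Its difference from the parent changed by 0.33 (exact permutation p = 0.629), and single libraries decided this value, which was 0.02 without 0 h p.r. 1, 0.05 without 0 h p.r. 2 and 0.82 without 0 h p.r. 3, and 0.14 to 0.55 without any one of the others.

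**Figure D3:**
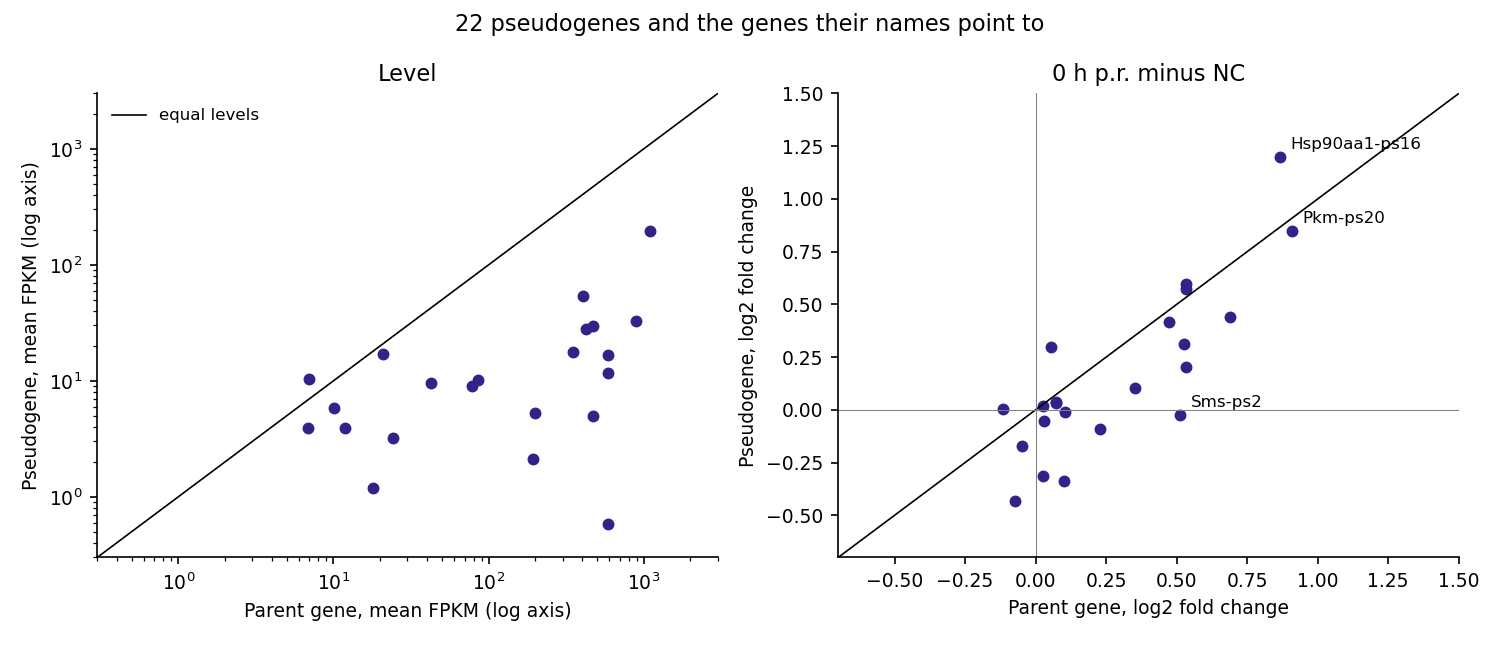
Left, mean FPKM of 22 pseudogenes against that of the parent gene (log axes), 1 point per pair and a line at equal levels. Right, log2 fold change of the pseudogene against that of its parent, 0 h p.r. minus NC, with the same line. On the left 21 of 22 points lie under the line, and on the right Sms-ps2 lies at -0.03 while its parent lies at 0.51.

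Among the copies of glycolytic genes, LOC100364062 (Pkm-ps20), a copy of the pyruvate kinase gene, was uneven among the runners. It measured 8.43, 15.8, 11.8 and 11.4 FPKM at rest and 39.8, 15.7, 26.9 and 12.05 FPKM after the run. The high values were those of 0 h p.r. 1 and 0 h p.r. 3, and the groups overlapped (log2 fold change 0.85, limma, adjusted p = 0.194). Pkm had 184, 285, 255 and 201 FPKM at rest and 766, 313, 550 and 256 FPKM after the run, with the same 2 libraries highest. RGD1562690, named above, had 15.1, 21.6, 16.7 and 15.3 FPKM at rest and 53.5, 28.4, 35.9 and 23.7 FPKM after the run, again highest in these 2. Their muscle marker sums were 34999 and 15922 FPKM, against 1059 to 7672 FPKM in the other 6 libraries. The part of muscle RNA in these rows was not tested. LOC685431 (Eno1-ps6), a copy of the enolase gene Eno1, lay between 3.47 and 7.1 FPKM over the 8 libraries (limma adjusted p = 0.853). Gm5471 (Eif1-ps8), a copy of the translation initiation factor gene Eif1, had 37.8 to 62.0 FPKM at rest and 53.7 to 63.1 FPKM in the runners (log2 fold change 0.31, limma, adjusted p = 0.272).

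A few rows fell into 2 levels that did not follow the groups. These rows were chosen after the data were seen. Rows whose low libraries were exactly the controls or exactly the runners were left out. Not following the groups was therefore part of the choice. The rows kept had a gap of at least 2 on the log2(FPKM + 0.5) scale and at least 2 libraries on each side. They were 5 of 344 pseudogene rows (1.45%), against 32 of 13863 tested genes (0.231%) and 23 of 13055 protein-coding genes (0.176%). RGD1563601 was low in 4 libraries, with 1.96, 1.89 and 1.80 FPKM in NC 1, NC 2 and NC 4 and 1.26 FPKM in 0 h p.r. 4, and high in the others, with 37.7 FPKM in NC 3 and 62.3, 22.9 and 40.8 FPKM in 0 h p.r. 1 to 3. The low libraries held 14 to 26 reads and the high ones 310 to 619. Its log2 fold change of 1.92, the second largest of the class in the main fit, had an adjusted p of 0.413 (limma). It ran from 1.32 to 3.04 with each library left out. AABR07052611.2 stood above it with a pseudocount of 0.1 (2.86 against 2.02) and with voom (2.45 against 1.89).

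The other rows split differently. AABR07010030.2 was low in NC 2 and NC 3, at 0.273 and 0.369 FPKM, and at 4.76 to 10.7 FPKM elsewhere. AC127784.2 was low in NC 4 and 0 h p.r. 3, at 0.201 and 0.00 FPKM, and at 7.93 to 17.3 FPKM elsewhere. AABR07044362.1, an unprocessed pseudogene, was low in NC 1, 0 h p.r. 1 and 0 h p.r. 3, at 0.069 to 0.348 FPKM, and at 3.92 to 10.3 FPKM elsewhere. AABR07044420.2 was low in NC 3, NC 4 and 0 h p.r. 2, at 0.00 to 1.74 FPKM, and at 15.9 to 30.2 FPKM elsewhere. No pair of these rows had the same low libraries. In a further row, AABR07067506.1, 0 h p.r. 4 alone was low, at 0.599 FPKM from 5 reads, against 15.9 to 28.8 FPKM in the other 7 libraries.

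**Figure D4:**
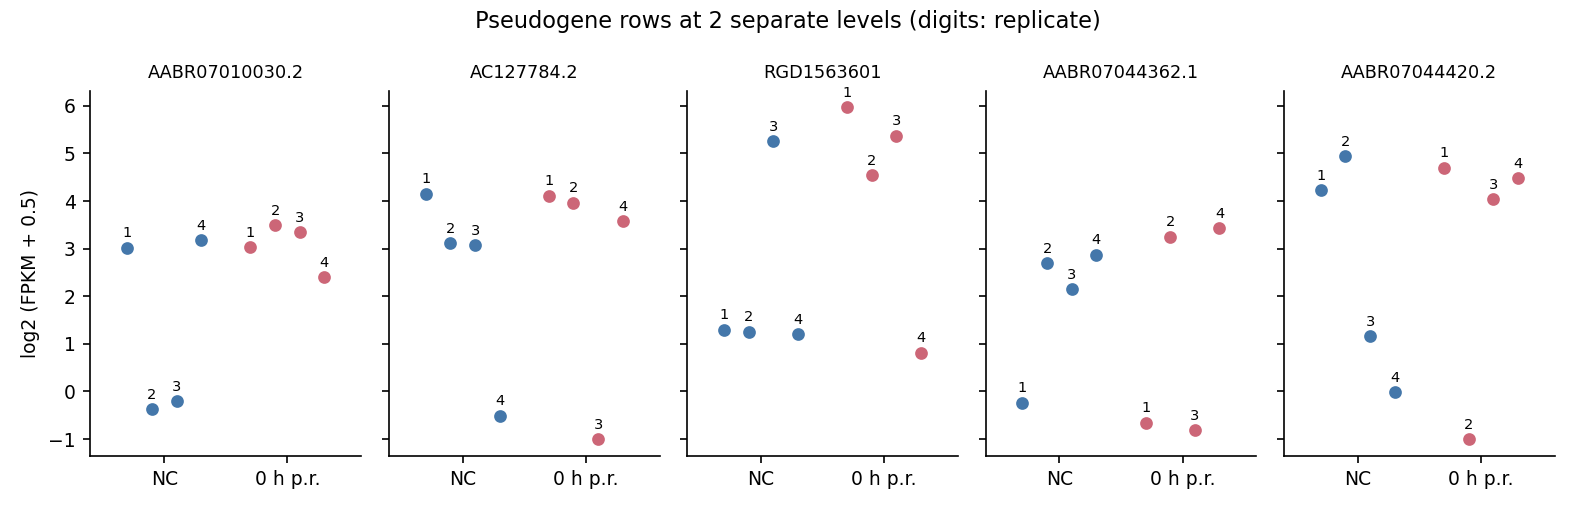
log2(FPKM + 0.5) of the 5 pseudogene rows with libraries at 2 separate levels, 1 point per library with its replicate number, NC in blue and 0 h p.r. in red. In each row both groups have libraries at the high level, and in all but AABR07010030.2 both also have libraries at the low level.

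The spread between replicates was larger than in coding genes. The median SD within groups was 0.382 on the log2 scale, against 0.256 for protein-coding genes. It was highest in both classes among rows with few reads, and fell steadily with reads in neither. Among rows with under 10 reads per library the medians were 0.565 for 51 pseudogenes and 0.523 for 178 coding genes. With 100 to 300 reads they were 0.294 and 0.252. With 300 to 1000 reads the medians were 0.378 for 24 pseudogenes and 0.219 for 4225 coding genes, and with 1000 reads or more 0.313 for 10 pseudogenes and 0.235 for 2560 coding genes. Processed pseudogenes had a median SD of 0.437 and rows with the plain label 0.347. The 9 unprocessed rows had the highest, 0.570, and the 6 transcribed processed rows the lowest, 0.286. By RefSeq type, the median was 0.315 in the 26 rows listed as protein-coding, with a median of 76.5 reads per library, 0.378 in the 23 listed as pseudogenes, with 160 reads, and 0.391 in the 295 without a match, with 29 reads. These differences were not tested.

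**Figure D5:**
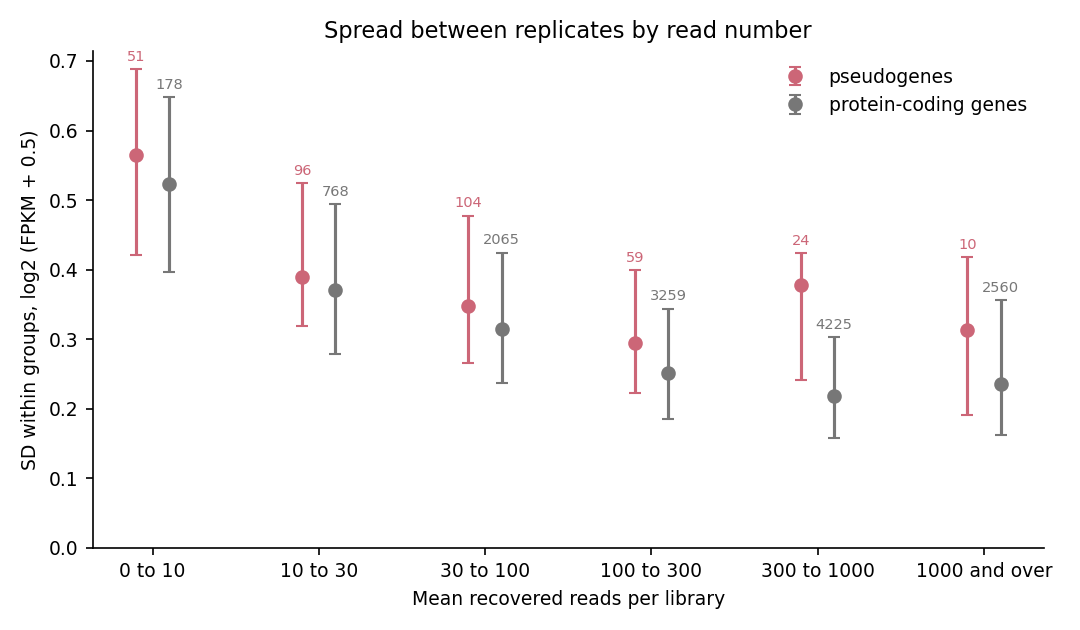
Median SD within groups on the log2(FPKM + 0.5) scale by mean reads per library, pseudogenes in red and protein-coding genes in grey, with bars from the lower to the upper quartile and the number of genes above each bar. The pseudogene median is the higher in each of the 6 ranges of reads.

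Under the filter lay 51 pseudogene rows, with means of 0.0802 to 1.29 FPKM and a median of 0.356 FPKM. In 3 of them (5.88%) the groups did not overlap, against 8.22% of all 1727 genes under the filter. Gpr52, an orphan receptor listed as protein-coding by RefSeq, had 0.130 to 0.325 FPKM at rest and 0.378 to 0.554 FPKM after the run, from 4 to 15 and 15 to 31 reads. AABR07021573.2 had 0.0897 to 0.239 and 0.392 to 0.554 FPKM, and N5 had 0.156 to 0.327 and 0.00 to 0.145 FPKM, both from at most 11 reads. These rows were not tested.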

How the data were processed

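RNA of 4 NC and 4 0 h p.r. Achilles tendons was analysed from 1 table of deposited FPKM values. The authors captured polyadenylated RNA, built stranded libraries, aligned reads to Rnor_6.0 with HISAT2 2.1.0, counted with featureCounts 1.6.3 and normalised with DESeq2 1.30.1. FPKM summed to 554130 to 900138 per library. The table also holds the authors' log2 fold changes and p-values from their own comparison, 3 columns that were not used. No coordinates of that build are given.

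Libraries were grouped by their titles. Genes reaching an FPKM of 0.5 in 4 or more libraries were tested on log2(FPKM + 0.5) with limma 3.58.1 in R 4.3.3 (lmFit, eBayes with trend), two-sided, no covariate, Benjamini-Hochberg over the 13863 tested genes. Fold changes on this scale understate the change of low genes. Whole reads and gene lengths were recovered from the FPKM steps for 15589 of 15590 genes, all 395 pseudogenes among them. Lengths equalled the RefSeq hairpin for 19 of 20 miRNA genes. Libraries held 10663512 to 17470961 such reads. The floor of 3 reads covers counting error only. The steps were tested on simulated data. Tables were handled with Python 3.11.15 and numpy 2.4.6.

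Rows named are those called, those next in size with separate groups up to 6 in each direction, the 10 most abundant and the most abundant of each family, with parents. Others are named as chosen after their values were seen. The members, lists and tests were chosen with earlier results of these data known. Alternatives were other pseudocounts, filters, scalings, weights, call rules, a replicate block, voom and each library left out.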

Additional observations from a re-analysis of the deposited data

Results flagged for a closer look

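Within a group of 4 libraries, a value was picked out when its gap to the nearest other, as a share of the group's range, exceeded Dixon's critical value, which chance does in about 1 of 20 groups. Over the 344 tested pseudogene rows this happened in 53 of 688 groups (7.70%), and 28 of the 53 were in NC 2. NC 2 held the highest value of 30.2% of the rows, against 6.10 to 9.30% in the other controls. Among the most abundant rows, NC 2 stood at 1144 FPKM for AC128792.2 (629 to 674 in the other controls), at 610 FPKM for AC095947.3 (271 to 314) and at 429 FPKM for AABR07045322.1 (183 to 216). NC 2 also had the highest mitochondrial share and the lowest depth, and their part in these values was not tested.

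AABR07067759.1, the row with the largest change in the main fit, had 1 high library in each group. These were NC 3 at 13.2 FPKM (8.42 to 8.78 in the others) and 0 h p.r. 3 at 93.5 FPKM (60.4 to 65.5). AABR07017999.1 stood at 4.19 FPKM in NC 1 (2.17 to 2.29 in the others). RGD1563601, one of the rows at 2 levels, stood at 37.7 FPKM in NC 3 (1.80 to 1.96 in the others).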

How the results depend on the processing

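Main counts were 374 genes and 5 pseudogene rows called. Over all tested genes the count was 793 at an adjusted limma p under 0.05 alone, 60 in the test against a fold of 1.5, 209 without both NC 2 and 0 h p.r. 1, 505 with library weights, and 195 to 516 with each library left out (217 without NC 1, 195 without 0 h p.r. 2 and 201 without 0 h p.r. 3). For pseudogenes it was 9 (8 higher, 1 lower) at an adjusted limma p alone, 2.62% against 5.72% of all tested genes. Against a fold of 1.5 it was 2 of 344, a higher share than the 60 of 13863 tested genes. With library weights it was 10 (4 lower), 2.91% against 3.64%. Library weights called 8 of the 24 rows named by rule, against 3.64% of all tested genes. The test against a fold of 1.5 called 2 of the 24, against the 60 of 13863 above. Those rows were named partly for being called or having separate groups, so counts among the named rows are no support for a difference. Leaving out each library gave 4 to 9 pseudogene rows (4 to 6 higher, 0 to 3 lower) and 4 to 7 of the named rows. Without 0 h p.r. 4 there were 9, of which 3 lower, and without NC 2 there was 1 lower. The rows at 2 levels numbered 6 at a gap of 1.5 (1.74%, against 0.628% of all tested genes). At a gap of 3 they numbered 2 (0.581%, against 0.0721%).

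With the replicate number as a block, 212 genes and 4 pseudogene rows were called, and LOC680491 was lost (limma adjusted p = 0.106). Libraries with the same number did not deviate together (correlations -0.14, -0.07, 0.07 and 0.01 across genes). Of the 8 libraries, 0 correlated best with their own number. The labels do not say what a shared number stands for, and whether such libraries share a batch or session was not tested.

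Rows near 0 changed sign. Quantile scaling gave AC098750.3 -0.061, AABR07039448.1 -0.058 and Ubb -0.029. Library weights gave AC098750.3 -0.0039, AC095947.3 0.17 and AABR07045322.1 0.11. Without both libraries AC128792.2 had 0.036, AC095947.3 0.13 and AABR07045322.1 0.12, and voom gave AC095947.3 0.0025. With each library left out, the ranges were -0.28 to 0.011 for AC128792.2, -0.045 to 0.12 for AC098750.3, -0.10 to 0.32 for AABR07039448.1, -0.039 to 0.13 for Ubb, -0.17 to 0.22 for AC095947.3 and -0.23 to 0.18 for AABR07045322.1. The cause was not tested. The smallest adjusted exact permutation p over the pairs lay between 0.314 and 0.893, in a design where 1 pair alone could not pass, so these values say nothing about stability. The mean pseudogene share of 0.996% was 1.33% without mitochondrial genes in the denominator and 0.986 to 1.01% with each library left out. Rows under the mean FPKM filter of 2 gave no value in that setting.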
